A study of Homo sapiens with 8 samples.

Results

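The epidermal growth factor receptor EGFR, 4 of its ligands (AREG, EREG, HBEGF and TGFA) and 5 genes that are switched on downstream of RAS and ERK (DUSP6, SPRY2, SPRY4, PHLDA1 and ETV5) were followed through drug selection of a breast cancer cell line. These 10 genes were taken by name from the 18955 genes of the table. For each gene the level in every library, the share of cells in which it was detected and its co-expression with the other members across cells were obtained.

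The line was SUM159, which was established from a human breast carcinoma and is triple-negative, that is, without estrogen receptor, progesterone receptor or HER2 amplification. All cells, controls included, carried a lentiviral library of DNA barcodes and were grown in a serum-containing medium with mammary epithelial growth supplements. Single-cell RNA libraries were made from cells before treatment (pre-treatment) and from cells passaged up to 18 times in DMSO, in 0.6 nM paclitaxel, in 160 nM palbociclib, in 100 nM JQ1 (2 libraries, JQ1-A and JQ1-B), and in JQ1 with paclitaxel or with palbociclib at those doses. JQ1 displaces BET proteins, which read acetylated histones, from chromatin. Palbociclib inhibits the cell-cycle kinases CDK4 and CDK6, and paclitaxel stabilizes microtubules. DMSO, paclitaxel, JQ1-A and JQ1+paclitaxel came from 1 experiment, and palbociclib, JQ1-B and JQ1+palbociclib from another without a vehicle library. Cells of the replicate cultures had been mixed in equal numbers for each library, which is therefore a single sample, and its cells were not treated as replicates. Of the JQ1+palbociclib cultures 1 was lost during selection.

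EGFR is a receptor tyrosine kinase. Its ligands are made as membrane-bound precursors that metalloproteases cut free, and the bound receptor activates RAS, the kinases RAF, MEK and ERK in turn, and transcription factors of the ETS family. ERK also induces its own inhibitors: DUSP6 removes phosphate from ERK in the cytoplasm, and the Sprouty proteins SPRY2 and SPRY4 dampen the signal between receptor and RAF. PHLDA1 and the ETS factor gene ETV5 are commonly read as transcriptional targets of the same pathway. High levels of EGFR are common in triple-negative tumors.

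The libraries held 459 to 1024 cells and 10621159 to 24240835 unique molecular identifiers (UMIs, 1 for each captured RNA molecule). Levels are given as CPM, the UMIs of a gene per 1000000 UMIs of its library. The mesenchymal and keratin markers fixed for this line were abundant (VIM 3279 to 4502 CPM, CD44 228 to 437, KRT8 275 to 445, KRT18 313 to 669), while ESR1, PGR, EPCAM and the leukocyte gene PTPRC stayed at or below 0.565 CPM in every library, and CDH1 and PECAM1 were not rows of the table. A total of 13 cell barcode sequences occurred in more than 1 library, with at most 2 shared by any pair. The 5 libraries selected with JQ1 or palbociclib differed from the other 3 in more than these genes. They had 43.3 to 59.7% of cells called G1, against 2.58 to 23.2%. Their median mitochondrial share was 4.69 to 7.18%, against 3.72 to 3.96%, and their median number of detected genes 3536 to 3935, against 4014 to 4148. Median UMIs per cell overlapped (20793 to 22495 against 20664 to 22503).

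EGFR itself (chr7:55086710-55279321 in hg19, plus strand) was measured at 20.9 CPM in pre-treatment, 13.8 in DMSO, 20.8 in paclitaxel and 24.1 in palbociclib. With JQ1 it stood at 17.2 CPM in JQ1-A, 18.9 in JQ1+paclitaxel, 21.0 in JQ1-B and 32.9 in JQ1+palbociclib. The receptor was thus lowest in DMSO and highest in JQ1+palbociclib, and the libraries with and without JQ1 overlapped. Both palbociclib libraries lay above the other 6. From counting error alone, JQ1+palbociclib exceeded JQ1-B of the same experiment by a ratio of 1.57 (95% exact interval 1.39 to 1.76). No separate cultures stand behind such single-library ratios, and their intervals cover counting error only.

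EREG (epiregulin, chr4:75230862-75254466, plus strand) is a low-affinity EGFR ligand that also acts on ERBB4. Its level was 97.4 CPM in pre-treatment, 66.4 in DMSO, 77.4 in paclitaxel and 111 in palbociclib, against 109 in JQ1-A, 92.9 in JQ1+paclitaxel, 106 in JQ1-B and 110.1 in JQ1+palbociclib. DMSO and paclitaxel were the low libraries, pre-treatment fell among those with JQ1, and palbociclib was just above all of them. HBEGF (heparin-binding EGF-like growth factor, chr5:139712428-139726188, minus strand) showed a similar order at a lower level, with 14.4 CPM in pre-treatment, 7.44 in DMSO, 10.5 in paclitaxel, 15.5 in palbociclib, 11.3 in JQ1-A, 10.1 in JQ1+paclitaxel, 13.2 in JQ1-B and 15.2 in JQ1+palbociclib. Its groups overlapped fully, the lowest and the highest library both being without JQ1. For both ligands the DMSO library was below pre-treatment, by a ratio of 0.682 for EREG (0.622 to 0.747) and 0.517 for HBEGF (0.393 to 0.673), so a comparison with DMSO alone gave larger ratios than one with the pre-treatment cells.

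TGFA (transforming growth factor alpha, chr2:70674416-70781325, minus strand), a high-affinity ligand, was rare in unselected cells. It had 9 UMIs (0.638 CPM) in pre-treatment, 13 (1.22 CPM) in DMSO, 17 (0.935 CPM) in paclitaxel and 41 (2.48 CPM) in palbociclib. With JQ1 there were 42 UMIs (2.60 CPM) in JQ1-A, 29 (2.02 CPM) in JQ1+paclitaxel, 74 (3.65 CPM) in JQ1-B and as many as 183 (7.55 CPM) in JQ1+palbociclib. All 5 libraries with JQ1 or palbociclib were above the other 3, and the 2 drugs together gave the highest level, 2.07 times that of JQ1-B (1.57 to 2.75) and 3.05 times that of palbociclib (2.16 to 4.39). The span from the lowest to the highest library was 11.8-fold, against 1.5-fold to 2.87-fold for the other 9 genes.

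AREG (amphiregulin, chr4:75310853-75320722, plus strand), a low-affinity ligand, was close to the limit of what these libraries could resolve, with 7 to 22 UMIs in each library and levels between 0.659 CPM in DMSO and 1.26 in JQ1+paclitaxel. Every single-library ratio had an interval that included 1. The low count has to be read with the sequence of the gene. The assembly used by the authors carries a near copy, AREGB (chr4:75480629-75490486), in which exons 2 to 6 of 6 are identical to those of AREG. The following stretch of exon 5 is shown because it stands in both genes letter for letter, at chr4:75318292-75318351 and chr4:75488050-75488109 of GRCh37, both on the plus strand:

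AREG and AREGB: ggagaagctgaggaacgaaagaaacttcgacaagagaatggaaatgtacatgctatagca

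Of 239 windows of 90 bases that could be placed whole in the last 500 bases of the AREG transcript, where a 3′ read falls, 0 occurred at only 1 place in the genome. For each of the other 9 genes all 411 such windows were unique. A counter that drops reads with more than 1 place would lose these reads, so the AREG values are uncertain as levels, and AREGB itself had at most 2 cells with a UMI in any library.

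DUSP6 (chr12:89741012-89746278, minus strand), the ERK phosphatase, was measured at 34.6 CPM in pre-treatment, 46.0 in DMSO, 29.4 in paclitaxel and 69.3 in palbociclib. With JQ1 its levels were 84.4 CPM in JQ1-A, 57.3 in JQ1+paclitaxel, 63.5 in JQ1-B and 76.4 in JQ1+palbociclib. The JQ1 libraries were all above pre-treatment, DMSO and paclitaxel, and the palbociclib library lay among them. SPRY4 (chr5:141689992-141706020, minus strand) had the same shape, with 11.1, 10.1, 8.86 and 21.5 CPM without JQ1 (pre-treatment, DMSO, paclitaxel and palbociclib), and 19.8, 12.8, 15.3 and 24.5 CPM with JQ1 (JQ1-A, JQ1+paclitaxel, JQ1-B, JQ1+palbociclib). SPRY2 (chr13:80910111-80915261, minus strand) was at 21.8, 16.2, 17.2 and 24.2 CPM in the 4 libraries without JQ1 in the same order, and at 37.7, 35.4, 26.7 and 31.3 CPM with JQ1. It was the 1 member of the 8 tested whose libraries with and without JQ1 did not overlap, where 28.2% of all genes tested did not overlap.

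PHLDA1 (chr12:76419227-76425556, minus strand) varied least, from 91.5 CPM in paclitaxel through 108 in DMSO, 119 in pre-treatment and 129.9 in palbociclib to 137 in JQ1-A, 123 in JQ1+paclitaxel, 128 in JQ1-B and 137 in JQ1+palbociclib. Again the palbociclib library stood with the JQ1 libraries. ETV5 (chr3:185764103-185828107, minus strand) did not share this pattern. Its levels were 24.3 CPM in pre-treatment, 21.0 in DMSO, 25.5 in paclitaxel and 20.4 in palbociclib, and 19.3 in JQ1-A, 16.3 in JQ1+paclitaxel, 19.2 in JQ1-B and 27.8 in JQ1+palbociclib. Both extremes of ETV5 were JQ1 libraries.

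**Figure D1:**
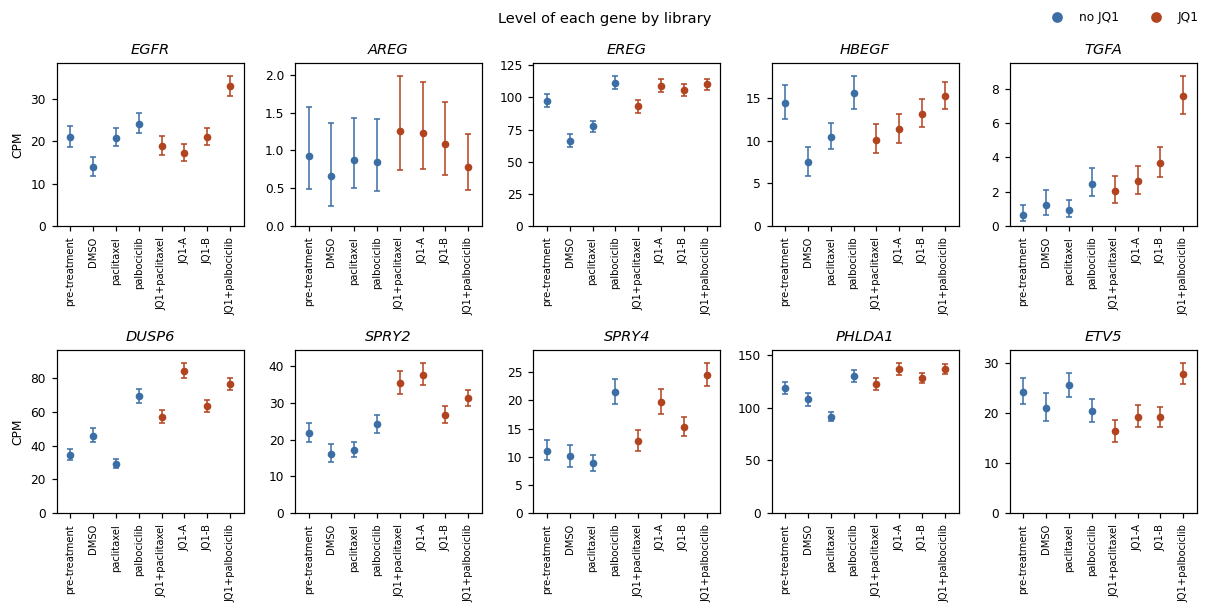
Level (CPM, vertical axes starting at 0) of the 10 genes in each of the 8 libraries, with exact 95% Poisson intervals of the UMI counts, which cover counting error only. Blue points are libraries without JQ1 and red points libraries with JQ1. For SPRY2 all red points are above all blue points, and for DUSP6, SPRY4, PHLDA1 and TGFA the palbociclib library lies at or above the lowest of the red points while pre-treatment, DMSO and paclitaxel lie below all of them.

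In 5 of the 10 genes (TGFA, DUSP6, SPRY2, SPRY4 and PHLDA1), or 4 of the 8 tested, every library with JQ1 or palbociclib was above every library with neither. The same was true of 11.5% of all genes tested. This division of the libraries was chosen after the values were seen, and it is the one along which the G1 and mitochondrial shares also differed. Their part in the levels was not tested beyond the fit on G1 cells given below. Within single phases the division held throughout for DUSP6 only, as also given below.

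Exposure to JQ1 was tested over libraries. UMI counts were summed per library and fitted with edgeR's quasi-likelihood test across 9288 genes, in a model that adds a term for JQ1 (present in 4 of 8 libraries), one for palbociclib (2 of 8) and one for paclitaxel (2 of 8). Genes with a p under 0.05 after Benjamini-Hochberg adjustment are referred to as called. For the JQ1 term 37.6% of all genes tested were called, 17.8% higher and 19.7% lower. Of the 10 members, 8 passed the filter on low counts (at least 5 CPM in 2 libraries) and 5 of these were called, all higher with JQ1. Among these 8 the feedback inhibitors had the largest differences. SPRY2 rose by a log2 fold change of 0.92 ± 0.19 (SE, edgeR adjusted p = 0.00736), DUSP6 by 0.91 ± 0.20 (edgeR adjusted p = 0.00986) and SPRY4 by 0.73 ± 0.16 (edgeR adjusted p = 0.0103). PHLDA1 rose by 0.43 ± 0.11 (edgeR adjusted p = 0.0172) and EREG by 0.45 ± 0.15 (edgeR adjusted p = 0.0449). EGFR (log2 fold change 0.34 ± 0.15, edgeR adjusted p = 0.104), HBEGF (0.25 ± 0.20, 0.343) and ETV5 (0.03 ± 0.15, 0.883) were not called. The median log2 fold change of the 8 members was 0.44, and that of all genes tested, which TMM scaling holds near 0, was -0.0032.

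The calls differed in how far they depended on single libraries. DUSP6, SPRY2 and SPRY4 were called in each of the 8 fits that left out 1 library, with log2 fold changes of 0.77 to 1.18, 0.79 to 1.13 and 0.61 to 0.94. PHLDA1 lost its call without DMSO (edgeR adjusted p = 0.0613) or without JQ1-A (0.0699). EREG kept it in 2 of the 8 fits, those without palbociclib or JQ1+palbociclib, and lost it without any 1 of the other 6 libraries (edgeR adjusted p from 0.0661 to 0.131). EREG and PHLDA1 also lost their calls when library totals replaced TMM factors (edgeR adjusted p = 0.174 and 0.0919). With experiment as a term, where 22% of all genes tested were called, EREG lost its call (0.44 ± 0.18, edgeR adjusted p = 0.109) and the other 4 members kept theirs. The change to library totals moved the median log2 fold change of all genes tested to -0.20 and that of the 8 members to 0.25. It moved the share of higher genes among the calls from 47.4% to 22.9%. A further fit used 3 pairs matched by partner drug (DMSO with JQ1-A, paclitaxel with JQ1+paclitaxel, palbociclib with JQ1+palbociclib). It called 361 genes (3.94% of those tested) and 0 of the 8 members. At an unadjusted p under 0.05 were 6 of the 8 members, beside 2705 of the 9172 genes tested. The edgeR adjusted p was 0.0541 for SPRY2, 0.0785 for DUSP6 and 0.0925 for SPRY4, with log2 fold changes of 1.06, 0.85 and 0.74. In the JQ1+paclitaxel experiment taken by itself (4 libraries, 1 residual degree of freedom) 30.4% of all genes tested and the same 5 members were called, with larger log2 fold changes: SPRY2 1.42 ± 0.21, DUSP6 1.21 ± 0.19, SPRY4 1.05 ± 0.23, EREG 0.78 ± 0.19 and PHLDA1 0.67 ± 0.18. The other experiment had no library without drug. There JQ1+palbociclib over palbociclib gave ratios of 1.30 for SPRY2 (1.15 to 1.47), 1.10 for DUSP6 (1.02 to 1.19), 1.14 for SPRY4 (0.999 to 1.31), 1.05 for PHLDA1 (0.998 to 1.11) and 0.989 for EREG (0.932 to 1.05).

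TGFA and AREG were below the filter. In a fit without it, over 18955 genes of which 22.2% were called for JQ1 and 1.08% for palbociclib, TGFA rose with JQ1 by a log2 fold change of 1.76 ± 0.26 (edgeR adjusted p = 0.000294) and with palbociclib by 1.33 ± 0.29 (edgeR adjusted p = 0.0391). The JQ1 call held in all 8 fits without 1 library (1.57 to 1.90). The palbociclib call held in 3 of 8, being lost without pre-treatment, DMSO, JQ1-A, JQ1-B or JQ1+palbociclib (edgeR adjusted p from 0.0600 to 0.130). AREG was not called for either drug (JQ1 0.56 ± 0.33, edgeR adjusted p = 0.258). Neither gene was fitted without TMM factors, in G1 cells, with experiment as a term or in matched pairs.

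**Figure D2:**
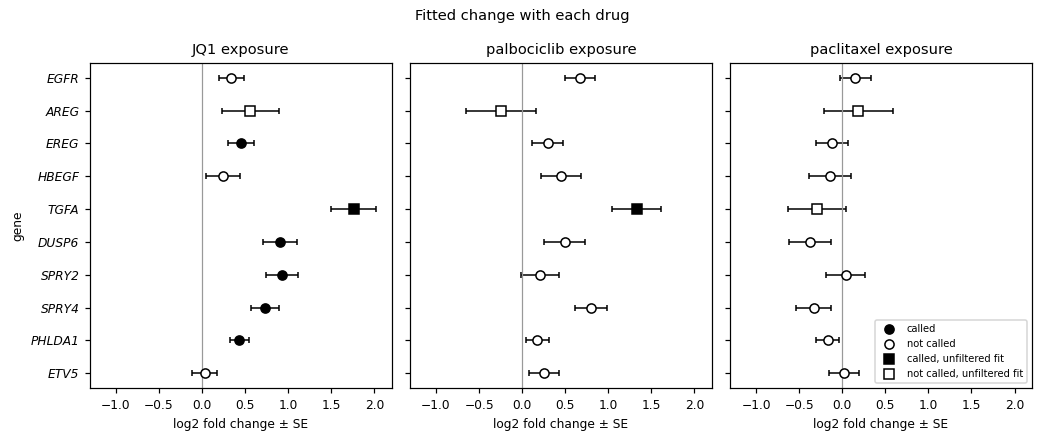
Log2 fold change (horizontal axis) with its standard error for each gene (rows) and each drug (panels), from the additive edgeR fit over 8 libraries. Filled symbols were called at an adjusted p under 0.05. Squares mark TGFA and AREG, which were fitted without the filter on low counts. With JQ1, EREG, TGFA, DUSP6, SPRY2, SPRY4 and PHLDA1 are filled, with palbociclib TGFA alone, and with paclitaxel none.

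For palbociclib, 0.28% of all genes tested and 0 of the 8 members were called in the edgeR fit. At an unadjusted p under 0.05 were 2056 of the 9288 genes tested and 2 of the 8 members. These were SPRY4 (log2 fold change 0.80 ± 0.19, edgeR adjusted p = 0.0823) and EGFR (0.67 ± 0.18, 0.1001). DESeq2, which called 5.54% of all genes, called both (adjusted p = 0.0193 and 0.0390). The edgeR call of SPRY4 appeared when paclitaxel, JQ1+paclitaxel or JQ1+palbociclib was left out, and DUSP6 was called without JQ1+palbociclib. EGFR, EREG, HBEGF and SPRY4 (4 of 8) were higher in both palbociclib libraries than in the other 6, where 14.4% of all genes tested did not overlap in either direction. Both of these libraries belonged to the JQ1+palbociclib experiment, whose only other library was JQ1-B, so palbociclib and experiment can be told apart only through that library. Adding experiment as a term left log2 fold changes of 0.93 ± 0.32 for SPRY4 and 0.52 ± 0.29 for EGFR, with no gene called. Against JQ1-B, the ratio of JQ1+palbociclib was 1.60 for SPRY4 (1.39 to 1.84), 1.16 for HBEGF (0.986 to 1.36) and 1.04 for EREG (0.983 to 1.10).

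For paclitaxel the edgeR fit called 0% of all genes tested (9 genes were called by DESeq2, and 395 had an unadjusted p under 0.05) and 0 of the 8 members, none of which was at an unadjusted p under 0.05 and none of which DESeq2 called. The fitted log2 fold changes of DUSP6 (-0.37 ± 0.24), SPRY4 (-0.33 ± 0.20) and PHLDA1 (-0.17 ± 0.14) were negative. In the fit on G1 cells those of SPRY4 (0.02) and PHLDA1 (0.17) were positive, neither being called. Single-library ratios are drawn from the same counts, and their intervals cover counting error only. For DUSP6 they were 0.639 for paclitaxel over DMSO (0.564 to 0.724) and 0.679 for JQ1+paclitaxel over JQ1-A (0.622 to 0.741). For SPRY4 these ratios were 0.879 (0.684 to 1.13) and 0.649 (0.538 to 0.780), and for PHLDA1 0.847 (0.785 to 0.914) and 0.899 (0.844 to 0.958).

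Whether JQ1 acted differently beside a partner drug was tested with interaction terms. These were called for 0.388% of all genes tested with paclitaxel and for 0.0108% with palbociclib, and for 0 of the 8 members with either drug, in edgeR as in DESeq2. With paclitaxel 0 members were at an unadjusted p under 0.05, beside 1577 of the 9288 genes tested. With palbociclib, 2 members were at an unadjusted p under 0.05, beside 1580 of the 9288 genes tested. Both had a smaller fitted JQ1 difference beside palbociclib: DUSP6 (log2 interaction -0.92 ± 0.30, edgeR adjusted p = 0.187) and SPRY4 (-0.71 ± 0.28, 0.247). The ratios come from the same counts and add no separate evidence. Those of DUSP6 were 1.83 for JQ1-A over DMSO (1.65 to 2.04), 1.95 for JQ1+paclitaxel over paclitaxel (1.74 to 2.18) and 1.10 for JQ1+palbociclib over palbociclib. Over all 10 genes, the interval lay above 1 for 8 genes in the first of these comparisons, for 6 in the second and for 5 in the third, and below 1 for ETV5 in the second. The intervals cover counting error only, and the share of all genes with such intervals was not obtained. These counts are therefore no result about the 10 genes.

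The share of cells with a UMI depends on depth, so each cell was thinned to 10000 UMIs, which left out 10 to 49 cells of a library. PHLDA1 was then detected in 52.2% (paclitaxel) to 69.7% (JQ1+palbociclib) of cells, EREG in 43.2% (DMSO) to 60.0% (JQ1+palbociclib) and DUSP6 in 22.6% (paclitaxel) to 48.0% (JQ1-A). Before thinning the same ranges were 74.6 to 87.7%, 63.8 to 80.5% and 41.6 to 69.8%. For DUSP6 the thinned shares were 25.9% in pre-treatment, 35.0% in DMSO and 22.6% in paclitaxel, against 39.3% in JQ1+paclitaxel, 45.4% in JQ1-B, 47.6% in JQ1+palbociclib, 47.7% in palbociclib and 48.0% in JQ1-A. The 3 libraries without JQ1 or palbociclib were the lowest, as they were in CPM. TGFA was found in 0.679% of paclitaxel cells (5 of 736) and 6.67% of JQ1+palbociclib cells (65 of 975), and unthinned in 2.26% and 15.7%. EGFR was detected in 12.5% (DMSO) to 26.3% (JQ1+palbociclib), SPRY2 in 14.7% (DMSO) to 27.1% (JQ1+palbociclib), ETV5 in 14.6% (JQ1+paclitaxel) to 24.7% (JQ1+palbociclib), SPRY4 in 8.42% (paclitaxel) to 20.4% (JQ1+palbociclib), HBEGF in 7.80% (DMSO) to 15% (JQ1+palbociclib) and AREG in 0.615% (JQ1+palbociclib) to 1.52% (JQ1-A). All cells were of 1 line, so no cell type that lacks these genes was present to measure the share that free RNA gives, and the shares of AREG and TGFA cannot be told apart from such a background.

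**Figure D3:**
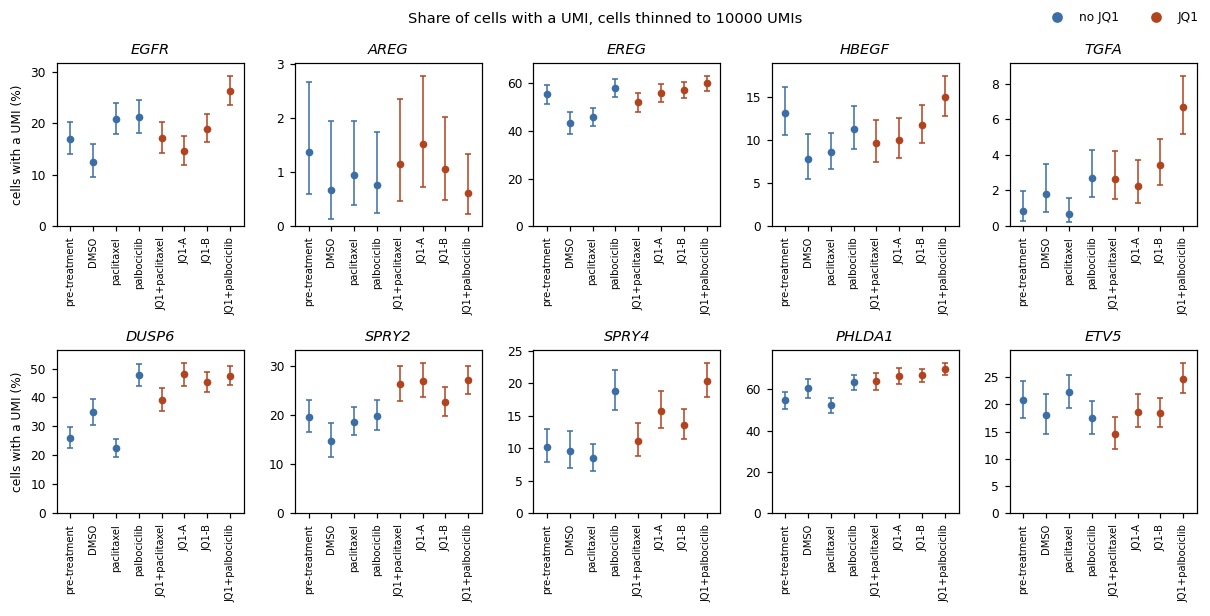
Share of cells with at least 1 UMI of each gene (percent, vertical axes starting at 0) in each library after thinning every cell to 10000 UMIs, with exact 95% binomial intervals over cells. Blue points are libraries without JQ1 and red points libraries with JQ1. The DUSP6 share is 22.6 to 35.0% in pre-treatment, DMSO and paclitaxel and 39.3 to 48.0% in the other 5 libraries, and the TGFA share is highest in JQ1+palbociclib at 6.67%.

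Within a library the genes differed in how evenly cells carried them. Where a thinned cell held on average at least 0.5 UMI, the variation left after counting noise, as a squared coefficient of variation, was 0.479 (JQ1+palbociclib) to 1.13 (JQ1+paclitaxel) for EREG, 0.312 (JQ1+palbociclib) to 1.01 (pre-treatment) for PHLDA1 and 0.225 (palbociclib) to 0.83 (JQ1-A) for DUSP6, which reached that mean in 5 libraries. For DUSP6 the palbociclib library had a mean of 0.687 UMI and at most 5 UMIs in a cell, whereas JQ1-A had a mean of 0.83 and up to 12. Values of this kind rest on 1 library each and carry no test.

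The levels were also read by cell cycle phase, since the libraries differed in it. DUSP6 stood higher in JQ1-A than in DMSO in each phase, with 84.6 against 53.2 CPM in G1, 80.8 against 48.8 in S and 82.9 against 40.3 in G2/M. SPRY2 likewise had 37 against 25.5, 33.0 against 13.1 and 41.6 against 15 CPM. DUSP6 in JQ1-B stood at 69.3, 61.1 and 58.6 CPM in G1, S and G2/M. It was below palbociclib (71.0, 74.0 and 61.5) and above pre-treatment (30.8, 37.2 and 31.3). SPRY2 in JQ1-B had 29.9, 25.6 and 23.4 CPM. Palbociclib had 24.1, 23.9 and 24.9, and pre-treatment 23.7, 19.2 and 23.3. In G2/M the SPRY2 levels with and without JQ1 thus overlapped. The division into libraries with JQ1 or palbociclib and those with neither held in every phase for DUSP6. For PHLDA1 it held in none. JQ1+paclitaxel had 85.5 CPM of PHLDA1 in S and 113.3 in G2/M, against 93.9 and 118.3 in DMSO. In G1 paclitaxel had 142.7 and JQ1-B 130.0. SPRY2 overlapped in G1 (palbociclib 24.1, DMSO 25.5). In G2/M SPRY4 (JQ1+paclitaxel 10.4, DMSO 11.5) and TGFA (0.691 and 1.38) did so. In the fit restricted to cells called G1, which called 16.7% of all genes tested, DUSP6 (log2 fold change 0.90 ± 0.22, edgeR adjusted p = 0.0208) and SPRY2 (0.83 ± 0.20, 0.0186) remained called for JQ1, while SPRY4 (0.68 ± 0.24, 0.0731), EREG (0.40 ± 0.14, 0.0724) and PHLDA1 (0.35 ± 0.13, 0.0781) did not. The paclitaxel library gave only 19 G1 cells to that fit. HBEGF was lower in G2/M than in G1 in all 8 libraries, from 4.1 against 12 CPM in DMSO to 9.2 against 15.8 in JQ1-B and 8.7 against 16.2 in JQ1+palbociclib. ETV5 was lower in G1 than in G2/M in 7 libraries, for example 14.4 against 24.3 CPM in JQ1-A and 16.5 against 27.9 in palbociclib, and stood the other way in paclitaxel, on its 19 G1 cells. Counts per phase are small, and these orders were noted after the values were seen.

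Across cells of 1 library the members were only loosely connected. Of 36 pairs (AREG left out for its low counts), the median over pairs of the median Pearson r was 0.0166 and 1 pair exceeded 0.1. That pair was DUSP6 and PHLDA1, with a median r of 0.125 (0.0815 to 0.178 over the 8 libraries). EREG and PHLDA1 followed with 0.0882, EREG and DUSP6 with 0.0861 and DUSP6 and SPRY4 with 0.0654, all 4 pairs being above 0 in 8 of 8 libraries. SPRY2 and SPRY4, which share function and family, gave 0.0172, and EGFR gave -0.0223 to 0.0548 with the other genes. The coefficient for DUSP6 and PHLDA1 was 0.172 unthinned and 0.0605 at 5000 UMIs per cell, so its size depended on depth. Points of 1 library share their pool and their reagents, counts were sparse, and weak coefficients of this kind are a description and not a finding.

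**Figure D4:**
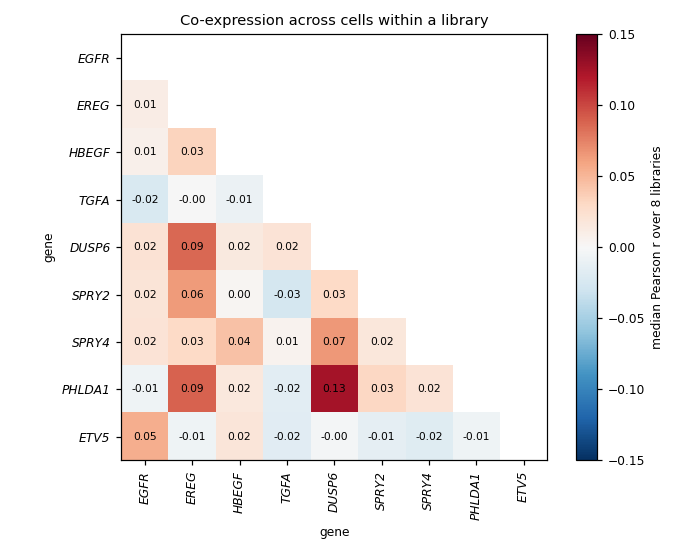
Median over 8 libraries of the Pearson r between 2 genes across cells thinned to 10000 UMIs (log of count plus 1), for the 36 pairs of 9 genes. Color runs from blue (negative) to red (positive). The largest value is that of DUSP6 and PHLDA1 (0.13 in the plot), and most cells of the plot lie near 0.

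The genes nearest to each member across cells were ranked among the 6631 genes whose mean per thinned cell was 0.1 UMI or more, a ranking added after the first values were seen. PHLDA1 ranked first for DUSP6 (mean r 0.129), ahead of the immediate early gene IER3 (0.122), the chemokine gene IL8 (0.0923) and EREG (0.0910). IER3 ranked first for EREG (0.141) and for PHLDA1 (0.149), with DUSP6 at rank 4 for EREG and rank 3 for PHLDA1. HBEGF stood apart, nearest to CTGF (0.0960) and CYR61 (0.0937), both known as targets of the YAP coactivator. ETV5 was nearest to the proliferation genes MKI67 (0.0875), UBE2S (0.0866) and TPX2 (0.0858). SPRY2 was nearest to TTC3 (0.0863) and IRX2 (0.0846), and SPRY4 to IRX2 (0.0974) and IER3 (0.0805). Mitochondrial genes held ranks 3 to 5 for SPRY4 (MT-CO1 0.0766, MT-CYB 0.0753, MT-CO3 0.0742) and rank 5 for SPRY2 (MT-CO3 0.0694). The part of the mitochondrial share in these coefficients was not tested. EGFR had no partner above 0.0672 (MT-CO1). The 99th percentile of mean r over all ranked genes was 0.0425 to 0.0645 for these members.

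Over the 8 libraries, profiles were compared by the root mean square difference of log2(CPM + 1) after centering each gene on its own mean, among genes that averaged 20 CPM or more. Nearest to DUSP6 were IRF2BPL (0.0907) and CPEB4 (0.105), against a median of 0.662 over 4432 genes. Nearest to SPRY2 were COMMD6 (0.136) and PIK3R1 (0.144), and to SPRY4 PSAP and KLF13 (both 0.153 to 0.154). PHLDA1 was nearest to CTNNA1 (0.0614) and CLTC (0.0674), EREG to C5orf24 (0.102) and EIF2AK1 (0.112), and EGFR to the mitochondrial gene MT-ND1 and to UBE2Q2 (both 0.133). HBEGF was nearest to ZC3HAV1 (0.127) and then to another member, EREG (0.161). ETV5 was nearest to MYEOV2 (0.0698) and OGFR (0.0788). With 8 libraries many genes come close, and nothing is implied about shared control.

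The upstream sequences of 2 feedback genes are shown because ETS factors, the nuclear end of the pathway, bind a GGAA core, and because DUSP6 and SPRY4 were both called higher with JQ1. Each sequence is the 250 bases before the annotated start, from RefSeq on GRCh38.p14, on the minus strand at chr12:89352502-89352751 (DUSP6) and chr5:142324248-142324497 (SPRY4), with GGAA or its reverse complement TTCC in capitals:

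DUSP6: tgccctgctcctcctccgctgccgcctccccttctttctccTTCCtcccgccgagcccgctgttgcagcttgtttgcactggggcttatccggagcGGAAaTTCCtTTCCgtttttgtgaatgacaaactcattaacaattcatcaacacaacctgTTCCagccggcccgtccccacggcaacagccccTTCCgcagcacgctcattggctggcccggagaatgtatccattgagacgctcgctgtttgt

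SPRY4: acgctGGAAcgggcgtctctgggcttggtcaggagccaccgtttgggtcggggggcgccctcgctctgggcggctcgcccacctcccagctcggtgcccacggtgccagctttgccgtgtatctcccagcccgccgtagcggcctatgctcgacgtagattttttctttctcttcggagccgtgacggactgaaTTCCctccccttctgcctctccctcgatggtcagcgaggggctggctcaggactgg

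DUSP6 held 6 copies of the core and SPRY4 2, where the median of 35116 promoters was 3 and 92.7% held at least 1. A share of 95.9% of promoters had as few copies as DUSP6 or fewer, and 44.9% as few as SPRY4. The 3 annotated SPRY2 starts had 4, 4 and 3 copies, PHLDA1 4 and EREG 4. The longer form CCGGAAG, searched on both strands and overlapping the core, was present in 8.52% of promoters and in none of the 13 promoters of 9 members. The AP-1 motif TGACTCA (both strands, in 4.20% of promoters) occurred 2 times before 1 of 2 EGFR starts, and the CRE motif TGACGTCA (its own reverse complement, 1.65%) 1 time before AREG. These are matches of letters in a fixed window and do not show binding.

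The rest of the pathway was read from 9 lists with 73 genes, of which 72 were in the table and 54 were tested. For JQ1 14 were called higher, 6 lower and 34 neither, that is 20 of 54 beside the 37.6% of all genes called. For palbociclib edgeR called 0 of 54, with 14 at an unadjusted p under 0.05, beside 2056 of all 9288 genes tested. DESeq2 called 3 (SHC1, MRAS and ARAF). For paclitaxel edgeR called 0 of 54, with 5 at an unadjusted p under 0.05, beside 395 of all 9288, and DESeq2 called 0. Among the other ERK feedback genes 2 of 6 were called: the nuclear ERK phosphatase DUSP4 (log2 fold change 1.0 ± 0.14, edgeR adjusted p = 0.00217) and SPRED2 (0.48 ± 0.12, 0.0149), a relative of the Sprouty proteins. DUSP4 stood at 20.6 to 22.8 CPM in pre-treatment, DMSO and paclitaxel, 31.3 in palbociclib and 26.4 to 57.5 with JQ1. It was called in all 19 alternative fits, while the list's median log2 fold change was 0.35.

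The adaptors and RAS regulators had 4 of 8 called higher: the adaptor SHC1 (0.72 ± 0.14), the exchange factor SOS2 (0.71 ± 0.18) and the RAS GTPase activators NF1 (0.41 ± 0.11) and RASA1 (0.34 ± 0.11). Of the ligand-processing genes 2 of 5 were called, ADAM10 (0.47 ± 0.11) and ADAM17 (0.44 ± 0.15), the proteases that release EGFR ligands. Of 8 fits without 1 library, ADAM17 and NF1 held their calls in 2, RASA1 in 4 and ADAM10 in 7. When library totals replaced TMM factors, NF1, RASA1, ADAM10, ADAM17 and SPRED2 lost their calls, as did RRAS, ETV1 and ELK3 named below, and in the fit of 3 matched pairs 19 of the 20 called list genes lost theirs, DUSP4 being the other. In cells called G1 12 of the 20 were lost: SOS2, NF1, RASA1, ADAM17, SPRED2, ERBB2, RRAS, ARAF, ETV1, ELK3, PLAUR and NRG1. With experiment as a term 6 were lost: NF1, RASA1, ADAM17, ELK3, NRG1 and DUSP2. Of the receptor inhibitors 0 of 4 were called, with CBL nearest (0.40 ± 0.14, edgeR adjusted p = 0.0507) and 1 gene at an unadjusted p under 0.05. ERBB2, the only tested partner receptor, rose by 0.82 ± 0.18 from a low level (5.3 to 10.3 CPM without JQ1, 10.1 to 12 with it).

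Other lists split in direction. In the RAS-RAF-MEK-ERK core RRAS (0.69 ± 0.20) was called higher, and MAPK3, which encodes ERK1 (-0.90 ± 0.18), and ARAF (-0.47 ± 0.11) lower, with RRAS called in 5 of 8 fits without 1 library, 9 of 12 not called and a median of -0.03. MAPK3 was at 8.2 to 9.6 CPM in the JQ1 libraries, 11.2 in paclitaxel and 21.3 to 22.6 in the other 3. Among 14 other ERK targets EPHA2 (0.95 ± 0.14), MYC (0.81 ± 0.19), ETV1 (0.53 ± 0.15) and ELK3 (0.40 ± 0.10) rose, whereas PLAUR (-0.82 ± 0.17) and ETV4 (-0.81 ± 0.20) fell. ETV1 and ELK3 held in 4 of 8 fits without 1 library, and MYC and ETV4 in 6. ETV1, ETV4 and the member ETV5 are the 3 genes of the PEA3 group of ETS factors, so 1 was called higher, 1 lower and 1 not at all. ETV4 was at 31.6 to 38.0 CPM in pre-treatment, DMSO and paclitaxel, 17.4 in palbociclib and 10.6 to 17.3 with JQ1. The ligand NRG1 of ERBB3 and ERBB4 fell by 1.49 ± 0.49 on the log2 scale (edgeR adjusted p = 0.0439), a call kept in 2 of 8 fits without 1 library. In the list named stress MAPK phosphatases DUSP2 fell by 1.16 ± 0.32 and held in 5 of 8 such fits. DUSP1 (0.34 ± 0.34) and DUSP10 (-0.06 ± 0.16) were not called.

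**Figure D5:**
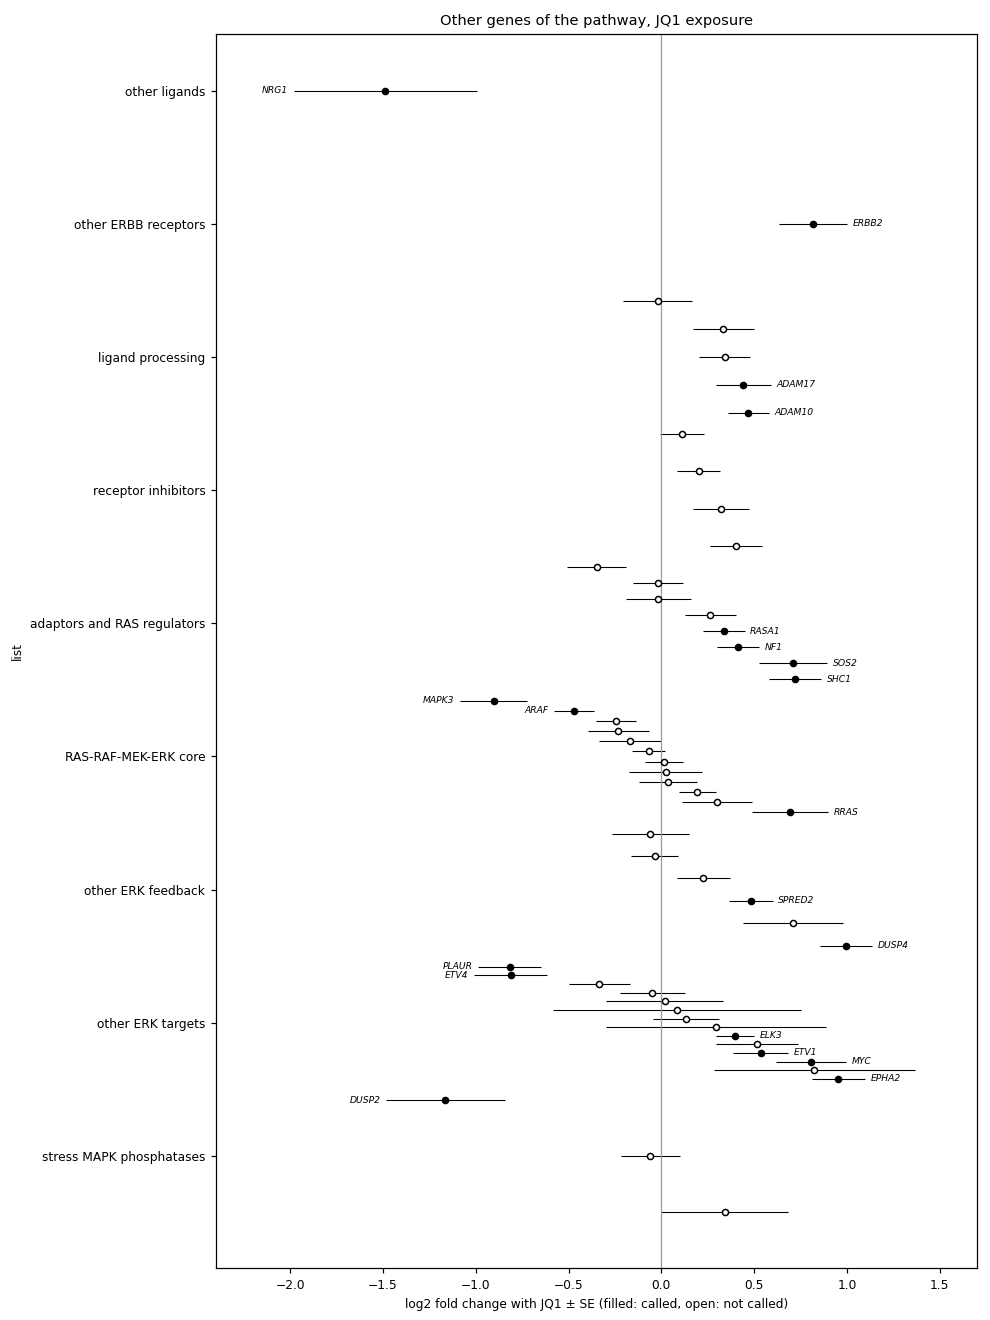
Log2 fold change with JQ1 (horizontal axis, bars of 1 SE) of the 54 tested genes in 9 lists (vertical axis). Filled points were called at an edgeR adjusted p under 0.05 and carry their gene name, and open points were not called. DUSP4 (1.0) and EPHA2 (0.95) are farthest right and NRG1 (-1.49) and DUSP2 (-1.16) farthest left.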

How the data were processed

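Single cells were captured with the 10x Genomics Chromium 3′ chemistry. The deposited table holds UMI counts that the authors made with Cell Ranger on hg19, 1 value for each gene in each cell. The annotation release was not given in the sources used. It has 18955 genes and 5738 cells of 8 libraries. A second deposited file gives the library of each cell. The study's cell filter (1 to 15% mitochondrial UMIs, at least 2000 genes) had not been applied to the table, and 5575 cells (97.2%) passed it. All deposited cells were used, and no doublet caller was run.

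Counts were summed per library and tested with edgeR 4.0.16 in R 4.3.3 (TMM, quasi-likelihood, 4 residual degrees of freedom for the additive model and 2 with interactions, at least 5 CPM in 2 libraries), and the script was tested on simulated data. Libraries totaled 10621159 to 24240835 UMIs. Each treatment had 1 library within an experiment, and JQ1 alone had 1 in each of 2 experiments. Pre-treatment and DMSO were fitted together as libraries without drug, although only DMSO was passaged. The residual spread behind the p-values of the additive model therefore holds their difference and that between JQ1-A and JQ1-B. It also holds any departure of the drug combinations from additivity, and is not a spread between like cultures. Each standard error is the log2 fold change over the square root of F. DESeq2 1.42.0 was an alternative. Levels carry exact Poisson intervals, ratios exact conditional binomial ones and shares exact binomial ones (95%), which cover counting error only. Cells were thinned to 10000 UMIs, leaving out 210 of 5738. Phases were called with Seurat 5.3.0. GRCh37 with GENCODE was searched for 90-base windows. Reported genes were the 10 members in every library, the called genes of the 9 lists and the 2 nearest profiles of each member. Besides these, 1 further gene was left out of the lists and is not reported here. The members and lists were chosen with earlier results of these data known. Alternatives were other normalizations, filters, cells, models and libraries left out, as given at the end.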

Additional observations from a re-analysis of the deposited data

Results flagged for a closer look

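The JQ1 difference of ETV5 had opposite directions beside the 2 partner drugs. JQ1+paclitaxel over paclitaxel gave a ratio of CPM of 0.639 (95% exact interval 0.544 to 0.750), and JQ1+palbociclib over palbociclib gave 1.36 (1.19 to 1.55). Each ratio compares 1 library with 1 library, so the difference between them was not tested over cultures. Phase differed too, with 2.58% of cells called G1 in paclitaxel and 48.1% in JQ1+paclitaxel. ETV5 in JQ1+paclitaxel against paclitaxel was 19.7 against 25.1 CPM in S and 18.4 against 24.7 in G2/M. For JQ1+palbociclib against palbociclib these were 32.8 against 20.1 and 32.7 against 27.9. The part of phase in the ratios was not tested. The interaction terms of the fit over 8 libraries were -0.36 ± 0.24 with paclitaxel (log2, edgeR adjusted p = 0.458) and 0.50 ± 0.23 with palbociclib (edgeR adjusted p = 0.302). In 20 groups of 4 libraries (10 genes with and without JQ1), 0 had a library farther from the others than Dixon's 95% critical value.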

How the results depend on the processing

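The count of genes called for JQ1 (3488) fell to 2062 with a minimum of 20 CPM (4994 genes tested), 1581 in G1 cells, 2043 with experiment as a term and 361 in 3 matched pairs, and was 1760 to 4190 without 1 library. Members called (5 of 8) numbered 3 without TMM, 4 with experiment as a term, 2 in G1 cells and 0 in matched pairs, and 3 to 5 without 1 library. For palbociclib (26 genes) the count was 515 with DESeq2, 205 without a filter on low counts, 16 with a minimum of 20 CPM, 2 in G1 cells, 56 with equal cell numbers, 0 with experiment as a term and 0 to 938 without 1 library, with 2 members called by DESeq2, 1 without a filter and 0 to 2 without 1 library. For paclitaxel (0 genes) it was 9 with DESeq2, 2 without a filter, 2 in the JQ1+paclitaxel experiment alone and 0 to 4 without 1 library. DESeq2 called 75 interactions with paclitaxel (36 in edgeR) and 33 with palbociclib (1). The causes were not tested, apart from the smaller numbers of genes, cells or libraries named. Of the alternative log2 fold changes of the members for JQ1, 142 kept direction and side of the threshold, 19 lost their call and 6 changed sign, all of ETV5 and none called: -0.165 without TMM, -0.103 in G1 cells, -0.094 in the JQ1+paclitaxel experiment alone and -0.127 to 0.165 without 1 library. For palbociclib 5 changed sign, none called, in fits without 1 library, whose values ran from -0.024 to 0.945 for DUSP6, -0.144 to 0.536 for SPRY2, -0.041 to 0.376 for PHLDA1 and -0.075 to 0.54 for ETV5, with AREG at 0.11 without JQ1+palbociclib and without the filter. For paclitaxel 18 did, none called. In G1 cells these were EREG (0.012), HBEGF (0.07), SPRY4 (0.024) and PHLDA1 (0.168), in the JQ1+paclitaxel experiment alone EREG (0.011) and HBEGF (0.169), and with experiment as a term SPRY2 (-0.056). ETV5 stood at -0.008 without TMM, -0.01 with a minimum of 20 CPM and -0.007 with equal cell numbers. Without 1 library the paclitaxel values ran from -0.327 to 0.024 for HBEGF, -0.245 to 0.279 for SPRY2 and -0.269 to 0.267 for ETV5, and TGFA was at 0.065 without JQ1+paclitaxel and without the filter. Replicate numbers are only names here, so the pairs were matched by partner drug and not by number. Fits without AREG's and TGFA's filter, each without 1 library, were chosen after seeing the data. Counts of 7 to 22 UMIs limit AREG, and 9 to 183 TGFA. Of 80 shares of cells, 75 moved beyond their interval when unthinned and 70 at 5000 UMIs.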
